A study of Mus musculus with 12 samples.

Results

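Interferon-linked caspase and death genes were followed across the 6 groups of the study: Casp1, Casp4, Gsdmd, Mlkl, Ripk3, Casp8, Fas, Tnfrsf10b and Tnfsf10. These 9 members are the rows of the count table that carry those symbols, out of 22298 genes in the table. Of the 9, 8 passed the low-count filter, as did 11904 genes in all, and the ninth, Ripk3, had no count in any library. All 8 also passed the filter on the vehicle libraries alone and on the IFNγ libraries alone.

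RNA came from 4T1, a mammary carcinoma line from BALB/c mice that forms tumours in hosts of that strain. Cells carried Cop1 sgRNA1 or Cop1 sgRNA2, together called Cop1 loss here, or, as control, a guide to Rosa26, a locus whose disruption is widely taken as harmless. They were either given 20 ng/ml IFNγ (interferon gamma) for 24 hours or kept in vehicle. This gives the groups Cop1 sgRNA1 with IFNγ, Cop1 sgRNA2 with IFNγ, Rosa26 with IFNγ, and the same populations in vehicle, with 2 libraries each. All groups carry a guide and share the cell line, and the labels do not give where the guides cut, or whether a population is a pool or a clone. Nor do they tell if the libraries of a group are separate cultures. The p-values then measure only the spread between these libraries, which may be technical.

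Library totals lay between 19378070 and 32609717 gene counts. Cop1 RNA was lower in both guide populations, at 60.2 to 60.7 CPM (counts scaled to a common library size) with sgRNA1 and 32.3 to 33.6 CPM with sgRNA2 under IFNγ, against 80.4 to 83.3 CPM in Rosa26 cells. All 10 genes of an IFNγ treatment list, such as Irf1 and Cxcl9, were called higher with IFNγ in Cop1-loss cells and in Rosa26 cells. Of 8 mammary epithelial markers all 8 passed the filter, with Epcam at 204 to 343 CPM over the 12 libraries. Their sums were 3670 to 3780 CPM in Cop1-loss cells and 3450 to 3460 CPM in Rosa26 cells with IFNγ, and 4370 to 4430 CPM in Cop1-loss cells and 4060 to 4180 CPM in Rosa26 cells in vehicle. Of 7 fibroblast and endothelial markers 3 passed, and Pdgfra made up most of their sum, at 15.2 to 23.3 CPM over all libraries. That sum was 16.3 to 17.5 CPM in Cop1-loss cells and 16.9 to 17.5 CPM in Rosa26 cells with IFNγ, and 17.5 to 23.5 CPM in Cop1-loss cells and 22.9 to 24.6 CPM in Rosa26 cells in vehicle. Of 11 leukocyte markers 2 passed, and Adgre1 and Cd3e were among those at 0 in every library. The leukocyte markers summed to 7.62 to 8.91 CPM in Cop1-loss cells with IFNγ, against 11.3 to 12.8 CPM in Rosa26 cells with IFNγ, of which Cd68 made up most, at 6.25 to 12.3 CPM over all libraries. In vehicle the sums were at most 8.46 CPM in Cop1-loss cells and at least 9.81 CPM in Rosa26 cells. The part of these 3 marker lists in the differences below was not tested.

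Caspases are cysteine proteases that carry out programmed cell death. CASP1 and CASP4 (also known as caspase-11 in mice) cleave gasdermin D, whose freed fragment opens pores in the cell membrane in pyroptosis. Death receptors such as FAS and TNFRSF10B, the mouse TRAIL receptor, recruit caspase-8 when their ligand binds. When caspase-8 is not active, RIPK3 can phosphorylate MLKL, which then disrupts the membrane in necroptosis. Interferons act through STAT and IRF factors on many genes of these pathways.

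RefSeq promoter windows (GRCm38.p6, plus strand for the genes shown) were given for 7 of the 9 members. The stretches of 250 bases before the start site are printed for Tnfsf10 (chr3:27316827-27317076), Casp1 (chr9:5298267-5298516), Casp4 (chr9:5308599-5308848) and Fas (chr19:34290409-34290658). Of the tested members, Tnfsf10 responded most to IFNγ. Casp1 and Casp4 are neighbours, and Casp4 was called lower under Cop1 loss with IFNγ and in vehicle. Casp1 was called under Cop1 loss with IFNγ only, and that call ended under several alternatives. Capitals mark matches to the STAT site GAS (TTCNNNGAA), to the core of the interferon-stimulated element ISRE (GAAANNGAA, reverse complement TTCNNTTTC), and to an IRF core (AANNGAAA, reverse complement TTTCNNTT). The IRF core was searched after the sequences and values had been seen.
Tnfsf10: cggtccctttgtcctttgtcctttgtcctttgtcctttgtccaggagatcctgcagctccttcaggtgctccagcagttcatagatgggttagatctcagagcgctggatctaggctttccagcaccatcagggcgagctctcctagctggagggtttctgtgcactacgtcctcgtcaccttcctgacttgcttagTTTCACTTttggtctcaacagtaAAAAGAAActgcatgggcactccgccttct
Casp4: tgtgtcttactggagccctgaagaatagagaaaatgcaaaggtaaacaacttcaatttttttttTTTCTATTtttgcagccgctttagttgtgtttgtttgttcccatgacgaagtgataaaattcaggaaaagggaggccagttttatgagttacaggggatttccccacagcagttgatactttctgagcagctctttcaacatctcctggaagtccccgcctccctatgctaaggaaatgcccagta
Casp1: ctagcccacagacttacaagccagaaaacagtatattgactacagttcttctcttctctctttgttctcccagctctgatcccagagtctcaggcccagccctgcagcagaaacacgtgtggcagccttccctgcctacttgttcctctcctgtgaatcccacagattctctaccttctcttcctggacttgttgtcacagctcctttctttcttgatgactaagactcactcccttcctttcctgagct
Fas: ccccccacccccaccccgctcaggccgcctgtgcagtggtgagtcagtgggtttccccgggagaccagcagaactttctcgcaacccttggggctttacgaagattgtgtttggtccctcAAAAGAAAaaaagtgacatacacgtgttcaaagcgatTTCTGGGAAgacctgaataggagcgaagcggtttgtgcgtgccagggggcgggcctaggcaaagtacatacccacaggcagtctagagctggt

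Both strands were searched over the whole window of 300 bases, where motifs may overlap. GAS was found in 1 of the 7 members with a window, Fas, against 8.3% of all 32851 windows. The ISRE core was found in 1 of 7, Ripk3, against 8.56% of all windows. The IRF core was found in 4 of 7, Casp4, Casp8, Fas and Tnfsf10, against 23.9% of all windows. Tnfsf10 held it at positions -53 (TTTCACTT) and -30 (AAAAGAAA) from the start site, and the first listed window of Casp4 held it at -186 (TTTCTATT) and at 3 (TTTCATTT) after the start. None of these letters was found in the Casp1 and Mlkl windows, and a match is a description of sequence only.

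IFNγ raised RNA of 7 of the 8 tested members in Cop1-loss cells and of 8 of 8 in Rosa26 cells, with Tnfsf10 showing the largest change of the tested members in both. Over all tested genes, 18.1% were called higher and 16.1% lower with IFNγ in Cop1-loss cells, and 16.6% higher and 16.2% lower in Rosa26 cells. The median log2 change of the tested members was 1.16 in Cop1-loss cells and 1.13 in Rosa26 cells, against a median of -0.01 over all tested genes in each.

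Under Cop1 loss with IFNγ, 2 of the 8 were called higher (Tnfsf10 and Casp1) and 3 lower (Casp4, Fas and Casp8), against 19.8% of all genes higher and 20.7% lower. In vehicle 1 was called higher (Mlkl) and 2 lower (Casp4 and Fas), against 16.6% higher and 19.2% lower. Gsdmd and Tnfrsf10b had no call in either. The median log2 change of the members was -0.06 with IFNγ and 0.00 in vehicle, and that of all genes was 0.00 and -0.01. With 8 members, these counts and medians are near those of all genes and are not a result about the members as a group. The comparisons of Cop1 loss and of IFNγ share libraries, so their values are given side by side. The data are from bulk cultures, in which fewer cells expressing a gene and less RNA of it per cell cannot be told apart.

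**Figure D1:**
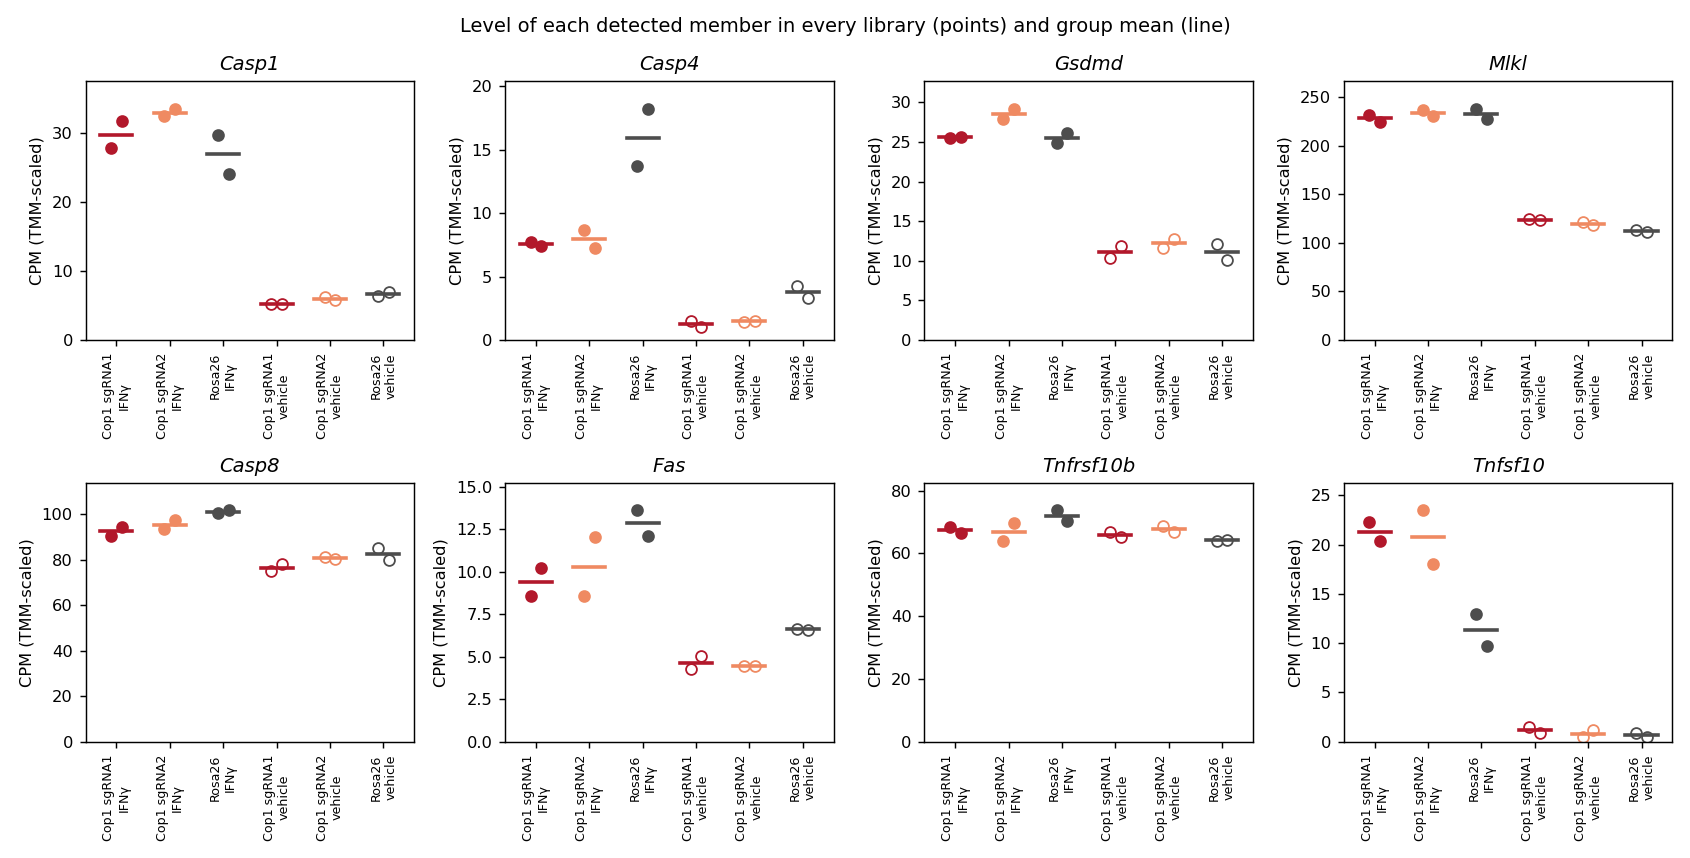
TMM-scaled CPM of each member that was detected, on a linear axis from 0, in all 12 libraries (points; filled with IFNγ, open in vehicle) with the mean of each group's 2 libraries (line). The IFNγ libraries lie above the vehicle libraries for Casp1, Casp4, Gsdmd, Mlkl, Casp8, Fas and Tnfsf10, while Casp4 and Fas are lower in both Cop1 guides than in Rosa26 cells under the same treatment.

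Casp1 (ENSMUSG00000025888.5, chromosome 9, 5298517 to 5307265, plus strand, GRCm38) encodes the protease that matures interleukin-1β in inflammasomes. It had 27.9 and 31.8 CPM in Cop1 sgRNA1 cells and 32.5 and 33.6 CPM in Cop1 sgRNA2 cells with IFNγ, against 29.8 and 24.1 CPM in Rosa26 cells with IFNγ. In vehicle it had 5.28 and 5.26 CPM in Cop1 sgRNA1 cells and 6.20 and 5.81 CPM in Cop1 sgRNA2 cells, against 6.45 and 6.90 CPM in Rosa26 cells. The IFNγ and vehicle libraries did not overlap. With IFNγ the Cop1-loss and Rosa26 libraries overlapped, and in vehicle all 4 Cop1-loss libraries were below both Rosa26 libraries. IFNγ raised Casp1 by 2.48 ± 0.08 (log2 change ± SE, adjusted p 3.63e-27, 5.57-fold) in Cop1-loss cells and by 2.02 ± 0.12 (adjusted p 1.69e-18, 4.05-fold) in Rosa26 cells. The difference between these responses was 0.46 ± 0.15 with adjusted p 0.0609. Under Cop1 loss with IFNγ Casp1 was higher by 0.22 ± 0.08 (adjusted p 0.0349), and in vehicle its change was -0.25 ± 0.13 (adjusted p 0.126). The call with IFNγ ended with DESeq2 (adjusted p 0.0925), with libraries summed per population (0.251), and in sgRNA1 cells alone (0.252). It also ended without Rosa26 IFNγ replicate 2, where the log2 change was 0.07, and without Cop1 sgRNA1 IFNγ replicate 2 (0.17) or Cop1 sgRNA2 IFNγ replicate 2 (0.20).

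Casp4 (ENSMUSG00000033538.13, chromosome 9, 5308828 to 5336783, plus strand) encodes the caspase that binds bacterial lipopolysaccharide inside cells. It had 7.70 and 7.44 CPM in Cop1 sgRNA1 cells and 8.68 and 7.25 CPM in Cop1 sgRNA2 cells with IFNγ, against 13.7 and 18.2 CPM in Rosa26 cells with IFNγ. In vehicle it had 1.503 and 1.03 CPM in Cop1 sgRNA1 cells and 1.44 and 1.52 CPM in Cop1 sgRNA2 cells, against 4.24 and 3.29 CPM in Rosa26 cells. All 4 Cop1-loss libraries were below both Rosa26 libraries under each treatment, and all IFNγ libraries were above all vehicle libraries of the same cells. The vehicle values rest on 22 to 49 counts with sgRNA1, 30 to 35 with sgRNA2 and 74 to 102 in Rosa26 cells. Under Cop1 loss Casp4 was lower, with a log2 change of -1.04 ± 0.13 with IFNγ (adjusted p 3.06e-08), at 48.6% of the Rosa26 mean CPM. In vehicle it was lower, with a log2 change of -1.44 ± 0.21 (adjusted p 3.98e-07), at 36.5% of the Rosa26 mean. With IFNγ the change was -1.07 ± 0.16 in sgRNA1 cells and -0.997 ± 0.16 in sgRNA2 cells, and in vehicle -1.53 ± 0.25 and -1.35 ± 0.25, each against Rosa26 and each called. IFNγ raised it by 2.48 ± 0.16 (adjusted p 4.04e-17) in Cop1-loss cells and by 2.08 ± 0.18 (adjusted p 4.38e-13) in Rosa26 cells, and the difference of 0.40 ± 0.25 was not called (adjusted p 0.419). The level of Casp4 in Cop1-loss cells with IFNγ was above that of Rosa26 cells in vehicle.

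Casp1 and Casp4 lie next to each other on the same strand, with 1562 bases between them, and Casp12 follows 8646 bases after Casp4. Casp12, whose role in cell death is debated, had 38.3 and 40.3 CPM on average in Cop1 sgRNA1 and sgRNA2 cells with IFNγ, against 32.0 CPM in Rosa26 cells with IFNγ. In vehicle it averaged 8.11 and 8.28 CPM in these Cop1 guide cells and 9.97 CPM in Rosa26 cells. Its log2 change under Cop1 loss was 0.30 ± 0.07 with IFNγ (adjusted p 0.000493) and -0.28 ± 0.10 in vehicle (adjusted p 0.0183). The vehicle call ended without either Rosa26 vehicle library, at -0.27 without replicate 1 and -0.29 without replicate 2. It also ended with only the groups of the comparison in the fit (adjusted p 0.0647), with summed libraries (0.139) and in sgRNA2 cells alone (0.0699), and the call with IFNγ ended with summed libraries (0.0670). With IFNγ Casp4 was called lower and its neighbours on both sides higher under Cop1 loss. The Casp1 call ended under several alternatives, and its Cop1-loss and Rosa26 libraries with IFNγ overlapped. In vehicle the log2 changes of all 3 genes were negative, at -0.25 for Casp1 (no call), -1.44 for Casp4 and -0.28 for Casp12. IFNγ raised all 3 genes, by 2.26 ± 0.07 log2 for Casp12 in Cop1-loss cells and 1.68 ± 0.09 in Rosa26 cells. The differences between the genes were not tested. How reads that match more than 1 of these related genes were counted is not known from the labels, and its effect on these values was not tested.

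Gsdmd (ENSMUSG00000022575.5, chromosome 15, 75862327 to 75867408, plus strand) encodes gasdermin D. It had 25.5 and 25.7 CPM in Cop1 sgRNA1 cells and 27.9 and 29.2 CPM in Cop1 sgRNA2 cells with IFNγ, against 24.9 and 26.1 CPM in Rosa26 cells with IFNγ. The vehicle libraries had 10.4 and 11.9 CPM in Cop1 sgRNA1 cells and 11.7 and 12.8 CPM in Cop1 sgRNA2 cells, against 12.1 and 10.2 CPM in Rosa26 cells. IFNγ and vehicle libraries were apart, and Cop1-loss and Rosa26 libraries overlapped under each treatment. IFNγ raised it by 1.22 ± 0.07 (adjusted p 2.20e-18) in Cop1-loss cells and by 1.20 ± 0.10 (adjusted p 5.78e-13) in Rosa26 cells. Its change under Cop1 loss was 0.08 ± 0.08 with IFNγ (adjusted p 0.440) and 0.06 ± 0.10 in vehicle (adjusted p 0.678).

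Mlkl (ENSMUSG00000012519.14, chromosome 8, 111311797 to 111338177, minus strand) encodes the executioner of necroptosis. It had 232 and 225 CPM in Cop1 sgRNA1 cells and 237 and 230.4 CPM in Cop1 sgRNA2 cells with IFNγ, against 238 and 228 CPM in Rosa26 cells with IFNγ. In vehicle it had 124 and 123 CPM in Cop1 sgRNA1 cells and 121 and 118 CPM in Cop1 sgRNA2 cells, against 113 and 111 CPM in Rosa26 cells. The groups overlapped with IFNγ, and in vehicle all 4 Cop1-loss libraries were above both Rosa26 libraries. IFNγ raised it by 0.92 ± 0.03 (adjusted p 5.00e-30) in Cop1-loss cells and by 1.06 ± 0.04 (adjusted p 2.93e-26) in Rosa26 cells, and the difference of -0.13 ± 0.05 was not called (adjusted p 0.0760). Under Cop1 loss it was higher in vehicle by 0.12 ± 0.03 (adjusted p 0.00452) and changed by -0.01 ± 0.03 with IFNγ (adjusted p 0.767). The vehicle call ended with libraries summed per population (adjusted p 0.274), in sgRNA2 cells alone (0.0650) and without Rosa26 vehicle replicate 2 (log2 change 0.10, adjusted p 0.0824).

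Ripk3 (ENSMUSG00000022221.14, chromosome 14, 55784995 to 55788865, minus strand), the kinase that acts on MLKL, was at 0 counts in all 12 libraries. A count of 0 allows up to 3 counts, or 0.092 to 0.158 CPM in a single library and 0.0107 CPM over the 279976953 counts of all libraries. Ripk3 RNA was therefore not detectable at this depth with IFNγ or in vehicle, and no fold is given.

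Casp8 (ENSMUSG00000026029.14, chromosome 1, 58795374 to 58847503, plus strand) encodes the initiator caspase of death receptors. It had 90.6 and 94.2 CPM in Cop1 sgRNA1 cells and 93.2 and 97.3 CPM in Cop1 sgRNA2 cells with IFNγ, against 101 and 102 CPM in Rosa26 cells with IFNγ. The vehicle libraries had 74.8 and 78.3 CPM in Cop1 sgRNA1 cells and 81.3 and 80.4 CPM in Cop1 sgRNA2 cells, against 85.1 and 79.7 CPM in Rosa26 cells. With IFNγ all 4 Cop1-loss libraries were below both Rosa26 libraries, and in vehicle they overlapped. IFNγ raised it by 0.25 ± 0.03 (adjusted p 8.46e-08) in Cop1-loss cells and by 0.30 ± 0.05 (adjusted p 4.16e-06) in Rosa26 cells, among the smaller responses of the members. Under Cop1 loss it was lower, with a log2 change of -0.11 ± 0.04 with IFNγ (adjusted p 0.0336), at 92.8% of the Rosa26 mean, and changed by -0.07 ± 0.04 in vehicle (adjusted p 0.226). The call with IFNγ ended with DESeq2 (adjusted p 0.0761), with summed libraries (0.324) and in sgRNA2 cells alone (0.176). It ended also without Rosa26 IFNγ replicate 1 (log2 change -0.12) or 2 (-0.10), and without replicate 1 of sgRNA1 (-0.09) or of sgRNA2 (-0.09) with IFNγ.

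Fas (ENSMUSG00000024778.13, chromosome 19, 34290666 to 34327772, plus strand) encodes the receptor for FAS ligand. It had 8.57 and 10.2 CPM in Cop1 sgRNA1 cells and 8.59 and 12.03 CPM in Cop1 sgRNA2 cells with IFNγ, against 13.6 and 12.1 CPM in Rosa26 cells with IFNγ. In vehicle it had 4.29 and 5.03 CPM in Cop1 sgRNA1 cells and 4.47 CPM in both libraries of Cop1 sgRNA2, against 6.65 and 6.59 CPM in Rosa26 cells. All 4 Cop1-loss libraries were below both Rosa26 libraries under each treatment, by a narrow margin with IFNγ. Under Cop1 loss Fas was lower, with a log2 change of -0.39 ± 0.13 with IFNγ (adjusted p 0.0112) and of -0.54 ± 0.15 in vehicle (adjusted p 0.00375). The call with IFNγ ended with summed libraries (adjusted p 0.0830) and in sgRNA2 cells alone (0.0862). It ended also without Rosa26 IFNγ replicate 1 (log2 change -0.30), Cop1 sgRNA1 IFNγ replicate 1 (-0.33) or Cop1 sgRNA2 IFNγ replicate 1 (-0.28). The vehicle call ended with summed libraries (adjusted p 0.0547). IFNγ raised Fas by 1.11 ± 0.12 (adjusted p 2.05e-10) in Cop1-loss cells and by 0.96 ± 0.15 (adjusted p 2.60e-06) in Rosa26 cells.

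Tnfrsf10b (ENSMUSG00000022074.6, chromosome 14, 69767472 to 69784411, plus strand) encodes the receptor of TRAIL. It had 68.5 and 66.4 CPM in Cop1 sgRNA1 cells and 63.9 and 69.8 CPM in Cop1 sgRNA2 cells with IFNγ, against 73.7 and 70.2 CPM in Rosa26 cells with IFNγ. The vehicle libraries had 66.9 and 65.1 CPM in Cop1 sgRNA1 cells and 68.8 and 66.7 CPM in Cop1 sgRNA2 cells, against 64.0 and 64.3 CPM in Rosa26 cells. Its levels moved little, and the lowest and highest group means were 64.2 and 72.0 CPM. With IFNγ all 4 Cop1-loss libraries were below both Rosa26 libraries, and in vehicle all 4 were above both, with no call in either. IFNγ raised it by 0.17 ± 0.05 (adjusted p 0.0167) in Rosa26 cells, a call that ended with upper-quartile scaling (adjusted p 0.0648), with summed libraries (0.253), without Rosa26 vehicle replicate 1 (0.0792) or 2 (0.0647), and without Rosa26 IFNγ replicate 1 (0.162). In Cop1-loss cells the change was 0.00 ± 0.04 (adjusted p 0.948). The difference between the responses was -0.16 ± 0.07 (adjusted p 0.167). Under Cop1 loss its change was -0.10 ± 0.05 with IFNγ (adjusted p 0.0839) and 0.06 ± 0.05 in vehicle (adjusted p 0.351). It was called lower with IFNγ when Cop1 sgRNA2 IFNγ replicate 2 was left out (log2 change -0.14).

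Tnfsf10 (ENSMUSG00000039304.11, chromosome 3, 27317028 to 27342427, plus strand) encodes TRAIL, the ligand of that receptor. It had 22.3 and 20.4 CPM in Cop1 sgRNA1 cells and 23.5 and 18.0 CPM in Cop1 sgRNA2 cells with IFNγ, against 12.9 and 9.67 CPM in Rosa26 cells with IFNγ. In vehicle it had 1.47 and 0.846 CPM in Cop1 sgRNA1 cells and 0.432 and 1.22 CPM in Cop1 sgRNA2 cells, against 0.915 and 0.489 CPM in Rosa26 cells. With IFNγ all 4 Cop1-loss libraries were above both Rosa26 libraries, and in vehicle they overlapped at 9 to 48 counts in Cop1-loss libraries and 11 to 22 in Rosa26 libraries. IFNγ raised Tnfsf10 by 4.37 ± 0.18 (adjusted p 1.33e-14, 20.7-fold) in Cop1-loss cells and by 3.99 ± 0.30 (adjusted p 6.05e-10, 15.8-fold) in Rosa26 cells. The difference of 0.39 ± 0.47 was not called (adjusted p 0.740). With IFNγ it was higher under Cop1 loss by 0.90 ± 0.16 (adjusted p 8.54e-05), at 186% of the Rosa26 mean, and by 0.92 ± 0.17 in sgRNA1 cells and 0.88 ± 0.18 in sgRNA2 cells. In vehicle the change was 0.51 ± 0.42 (adjusted p 0.379). With 1 library left out it lay between 0.036, without Cop1 sgRNA2 vehicle replicate 2, and 1.04, without Rosa26 vehicle replicate 1, and was not called in any of these fits.

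**Figure D2:**
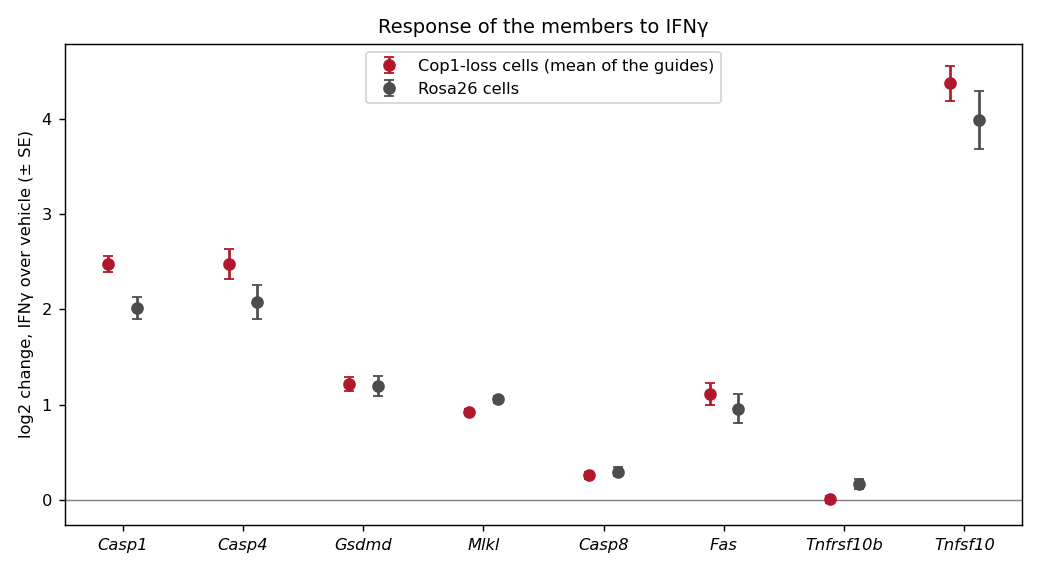
log2 change of IFNγ over vehicle (y axis; points with standard errors) for the 8 tested members (x axis) in Cop1-loss cells, as the mean of the guides, and in Rosa26 cells. Tnfsf10 is highest in both, at 4.37 and 3.99, and Tnfrsf10b is lowest, at 0.00 and 0.17.

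**Figure D3:**
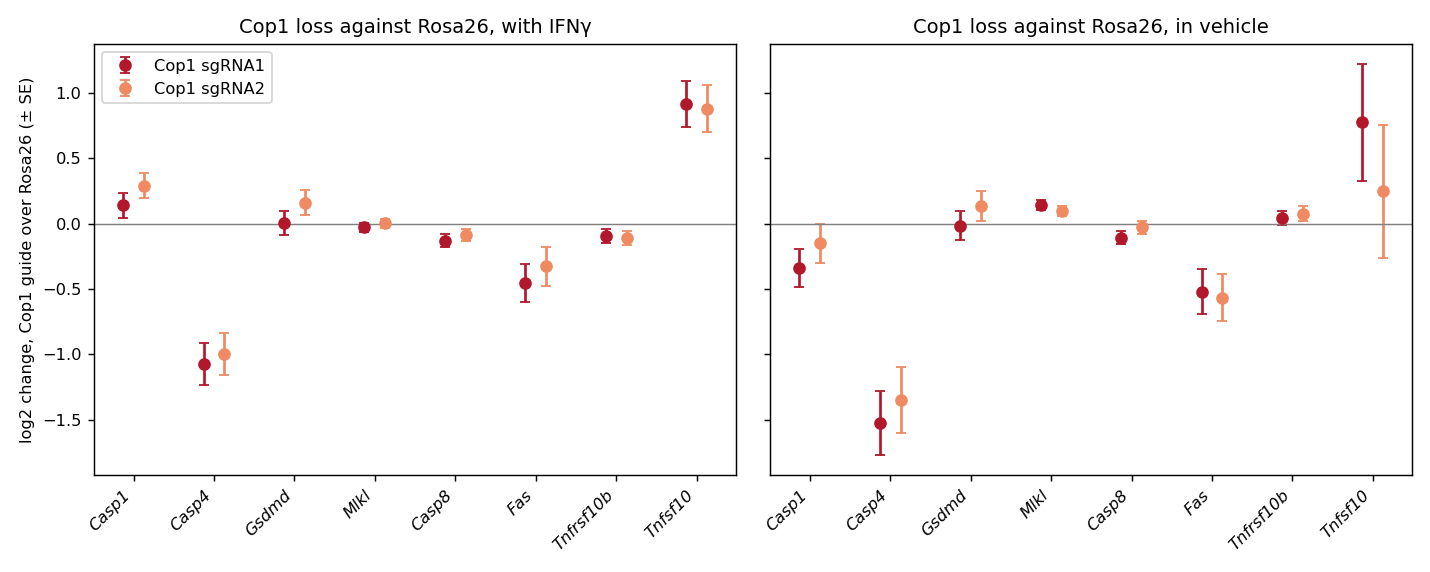
log2 change of each Cop1 guide over Rosa26 (y axis; points with standard errors) for the 8 tested members (x axis), with IFNγ and in vehicle. Casp4 lies between -1.53 and -0.997 in both guides and treatments, and Tnfsf10 with IFNγ lies at 0.92 for sgRNA1 and 0.88 for sgRNA2.

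No tested member had a called difference between the responses to IFNγ in Cop1-loss and Rosa26 cells: 0 of 8 by edgeR and 0 of 8 by DESeq2. Of all genes, 3.38% were called higher and 2.36% lower by edgeR. Casp1, Mlkl and Tnfrsf10b, 3 of the 8, had an unadjusted p under 0.05. The share of all genes under that unadjusted threshold is not given here, so this count is not a result about the members. Casp1 became called without the low-count filter (log2 change 0.46, adjusted p 0.0478), and without Rosa26 IFNγ replicate 1 (0.62, adjusted p 0.0203) or Cop1 sgRNA1 IFNγ replicate 1 (0.51, adjusted p 0.0412). Mlkl became called with upper-quartile scaling (-0.15, adjusted p 0.0482) and at a mean CPM of at least 1 (-0.15, adjusted p 0.0405). Between sgRNA2 and sgRNA1, 0 of 8 members were called in vehicle and 0 of 8 with IFNγ by edgeR and by DESeq2, and none reached an unadjusted p under 0.05. Of all genes, 5.07% were higher and 4.33% lower in sgRNA2 with IFNγ, and 2.58% and 3.41% in vehicle. The largest of these member values in size was -0.53 ± 0.44 for Tnfsf10 in vehicle, so differences of this size between the guides were not detectable for it. It was -1.48 without Cop1 sgRNA2 vehicle replicate 2, -0.80 without Cop1 sgRNA1 vehicle replicate 2, and near 0 without replicate 1 of sgRNA1 (-0.0058) or of sgRNA2 (-0.0032) in vehicle.

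Per kilobase of merged exons (GENCODE M21, GRCm38), Mlkl stood highest of the members, at 99.2 and 101 CPM per kb in Cop1 sgRNA1 and sgRNA2 cells with IFNγ, and 101 in Rosa26 cells with IFNγ. Casp8 followed at 31.9 and 32.9 CPM per kb in these Cop1 guide cells and 34.9 in Rosa26 cells, and Casp1 at 19.9 and 22.1 against 18.0. At the low end with IFNγ were Casp4, at 2.04 and 2.15 CPM per kb in the Cop1 guide cells and 4.30 in Rosa26 cells, and Tnfsf10, at 4.05 and 3.94 against 2.15. In vehicle the lowest level above 0 was that of Tnfsf10, at 0.220 and 0.156 CPM per kb in the Cop1 guide cells and 0.133 in Rosa26 cells. No gene that the annotation places over a member on either strand has a row in the count table.

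By group mean CPM, the Rosa26 cells with IFNγ stood first for Casp4, Casp8, Fas and Tnfrsf10b, and the Cop1 guides with IFNγ stood first and second for Tnfsf10, Casp1 and Gsdmd. For Casp1 and Gsdmd the sgRNA1 range overlapped with that of Rosa26 cells with IFNγ. The Gsdmd means of these groups were 25.59 and 25.53 CPM. For Casp4 the sgRNA1 and sgRNA2 ranges overlapped under each treatment, and the other neighbours in its order did not overlap. For Mlkl the 3 IFNγ groups overlapped with their neighbours in the order, and the 3 vehicle groups did not. For Tnfsf10 the 3 vehicle groups overlapped with their neighbours, as did the IFNγ groups of the guides, which both stood above Rosa26 cells with IFNγ.

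The partner genes of these pathways were taken from 5 lists, chosen with earlier results known. With IFNγ, 18.1% of all tested genes were called higher and 16.1% lower in Cop1-loss cells, and 16.6% and 16.2% in Rosa26 cells. Under Cop1 loss these shares were 19.8% and 20.7% with IFNγ, and 16.6% and 19.2% in vehicle. The counts of each list stand beside these shares, and no list was tested as a set. A count near them is not a result about its list. Of 18 necroptosis and RIPK1 complex partners, all tested, 12 were called higher and 0 lower with IFNγ in Cop1-loss cells, and 14 and 0 in Rosa26 cells, with median log2 changes of 0.38 in each against -0.01 over all genes. Zbp1, the sensor that can engage RIPK3, averaged 93.9 CPM with IFNγ and 1.44 CPM in vehicle in Rosa26 cells (log2 change 6.02 ± 0.11, adjusted p 1.94e-36). Tlr3, a receptor for double-stranded RNA, had 99.3 to 101 CPM with IFNγ and 41.5 to 42.5 CPM in vehicle there (1.26 ± 0.06, adjusted p 1.08e-22), and Rnf31, a subunit of the linear ubiquitin ligase, 51.0 and 22.1 CPM (1.21 ± 0.07, adjusted p 3.86e-18). Map3k7, which encodes the kinase TAK1, had no call at 141 CPM in each (0.00 ± 0.04, adjusted p 0.994).

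Under Cop1 loss with IFNγ, 4 of these 18 were called higher and 7 lower, with a median of -0.10 against 0.00 over all genes, and in vehicle 3 higher and 6 lower. Zbp1 fell to 64.3 CPM in Cop1-loss cells, against 93.9 CPM in Rosa26 cells with IFNγ (-0.56 ± 0.05, adjusted p 1.61e-11). Tnip1, a ubiquitin-binding partner of A20, averaged 95.2 CPM in Cop1-loss cells and 129 CPM in Rosa26 cells (-0.44 ± 0.04, adjusted p 6.55e-12), and Tlr3 had 72.5 to 85.7 CPM in Cop1-loss cells and 99.3 to 101 CPM in Rosa26 cells (-0.34 ± 0.04, adjusted p 3.74e-08). Ppm1b, a phosphatase, had no call at 114 and 113 CPM (0.02 ± 0.04, adjusted p 0.697).

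Of 22 death receptor partners and inhibitors, 18 were tested. With IFNγ 7 were called higher and 1 lower in Cop1-loss cells, and 10 higher and 1 lower in Rosa26 cells (median log2 changes 0.05 and 0.21). In Rosa26 cells Tnfrsf1a, the main TNF receptor, averaged 91.4 CPM with IFNγ and 51.6 CPM in vehicle (0.83 ± 0.05, adjusted p 3.78e-17). Birc3, an inhibitor of apoptosis, averaged 27.9 and 15.9 CPM (0.82 ± 0.09, adjusted p 1.45e-09), and Daxx 72.8 and 43.6 CPM (0.74 ± 0.06, adjusted p 4.85e-14), while Xiap, another inhibitor, was at 94.7 and 101 CPM with no call (-0.09 ± 0.05, adjusted p 0.168). Xiap became called lower without Rosa26 vehicle replicate 1 (-0.15, adjusted p 0.0382) and with upper-quartile scaling (-0.12, adjusted p 0.0401). Under Cop1 loss with IFNγ 3 were called higher and 7 lower (median 0.00), and in vehicle 3 higher and 4 lower. These 10 calls were 6 without Rosa26 IFNγ replicate 1, and the 7 in vehicle were 3 and 4 without Rosa26 vehicle replicate 1 or 2. Birc3 averaged 19.6 CPM in Cop1-loss cells and 27.9 CPM in Rosa26 cells with IFNγ (-0.52 ± 0.08, adjusted p 6.74e-07), Traf2, an adaptor of TNF receptors, 44.9 and 57.6 CPM (-0.36 ± 0.05, adjusted p 4.06e-07), and Daxx 58.3 and 72.8 CPM (-0.33 ± 0.05, adjusted p 6.11e-07). Tnfrsf12a, a TNF receptor family member, had no call at 552 and 543 CPM (0.02 ± 0.03, adjusted p 0.523).

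Among 28 inflammasome and pyroptosis partners, 13 were tested. With IFNγ 2 were called higher and 0 lower in Cop1-loss cells (median 0.13), and 3 higher and 2 lower in Rosa26 cells (median -0.04). Il1a, which encodes interleukin-1α, averaged 219 CPM with IFNγ and 75.7 CPM in vehicle in Rosa26 cells (1.53 ± 0.05, adjusted p 1.01e-28). Gsdme, the other gasdermin of the list named here, averaged 10.6 and 13.6 CPM (-0.37 ± 0.13, adjusted p 0.0215), and Ninj1, which mediates membrane rupture, 43.4 and 35.5 CPM (0.29 ± 0.07, adjusted p 0.00183). The Gsdme call ended without Rosa26 vehicle replicate 1 (-0.32) or Rosa26 IFNγ replicate 1 (-0.27), and the Ninj1 call without Rosa26 IFNγ replicate 1 (0.20). Nek7, a cofactor of NLRP3, had no call (-0.05 ± 0.04, adjusted p 0.247), but was called lower with upper-quartile scaling (-0.09, adjusted p 0.0385). Of the 13, 2 were called higher and 3 lower under Cop1 loss with IFNγ (median -0.05), and in vehicle 0 higher and 2 lower. Without Rosa26 IFNγ replicate 1 there were 2 calls both here and with IFNγ in Rosa26 cells, without Rosa26 IFNγ replicate 2 they were 3 here, and without Rosa26 vehicle replicate 2 there was 1 in vehicle. Il1a averaged 131 CPM in Cop1-loss cells and 219 CPM in Rosa26 cells with IFNγ (-0.74 ± 0.04, adjusted p 4.34e-20), and Dpp8, a peptidase that restrains NLRP1, 109 and 97.8 CPM (0.15 ± 0.04, adjusted p 0.00120). Nek7 had no call at 208 and 215 CPM (-0.05 ± 0.03, adjusted p 0.226).

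Of 16 other caspase and apoptosome genes 15 were tested, and 7 were called higher and 2 lower with IFNγ in Cop1-loss cells, and 6 and 2 in Rosa26 cells (medians 0.14 and 0.12). In Rosa26 cells Apaf1, the apoptosome scaffold, had no call at 46.9 CPM with IFNγ and 46.5 CPM in vehicle (0.01 ± 0.07, adjusted p 0.922). With Cop1 loss and IFNγ 5 were called higher and 2 lower (median 0.03), and in vehicle 4 and 2. Casp6 averaged 24.7 CPM in Cop1-loss cells and 17.6 CPM in Rosa26 cells with IFNγ (0.48 ± 0.08, adjusted p 4.56e-06), while Apaf1 had no call at 47.8 and 46.9 CPM (0.03 ± 0.06, adjusted p 0.724).

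Of 18 BCL2 family genes 12 were tested, and 2 were called higher and 1 lower with IFNγ in Cop1-loss and in Rosa26 cells (medians -0.09 and 0.01). With upper-quartile scaling the family had 6 calls with IFNγ in Cop1-loss cells, 2 higher and 4 lower. In Rosa26 cells the pore-forming gene Bak1 averaged 135 CPM with IFNγ and 87.7 CPM in vehicle (0.62 ± 0.05, adjusted p 2.22e-14), Bok 60.9 and 82.1 CPM (-0.43 ± 0.05, adjusted p 1.06e-08), and Bcl2l1, which encodes BCL-XL, 162 and 127 CPM (0.35 ± 0.04, adjusted p 3.65e-09). The survival gene Mcl1 had no call at 218 and 210 CPM (0.06 ± 0.04, adjusted p 0.216). With Cop1 loss and IFNγ 1 was called higher and 4 lower (median -0.04), and in vehicle 2 and 3. Bok averaged 83.8 CPM in Cop1-loss cells and 60.9 CPM in Rosa26 cells (0.46 ± 0.05, adjusted p 7.67e-11), Bax 40.4 and 46.4 CPM (-0.20 ± 0.06, adjusted p 0.00307), and Bcl2l1 144 and 162 CPM (-0.17 ± 0.04, adjusted p 0.000119). In sgRNA1 cells alone Bax (adjusted p 0.174) and Bcl2l1 (0.0639) had no call, and without Rosa26 IFNγ replicate 2 the family had 3 calls in place of 5. Mcl1 had no call at 227 and 218 CPM (0.05 ± 0.03, adjusted p 0.157).

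**Figure D4:**
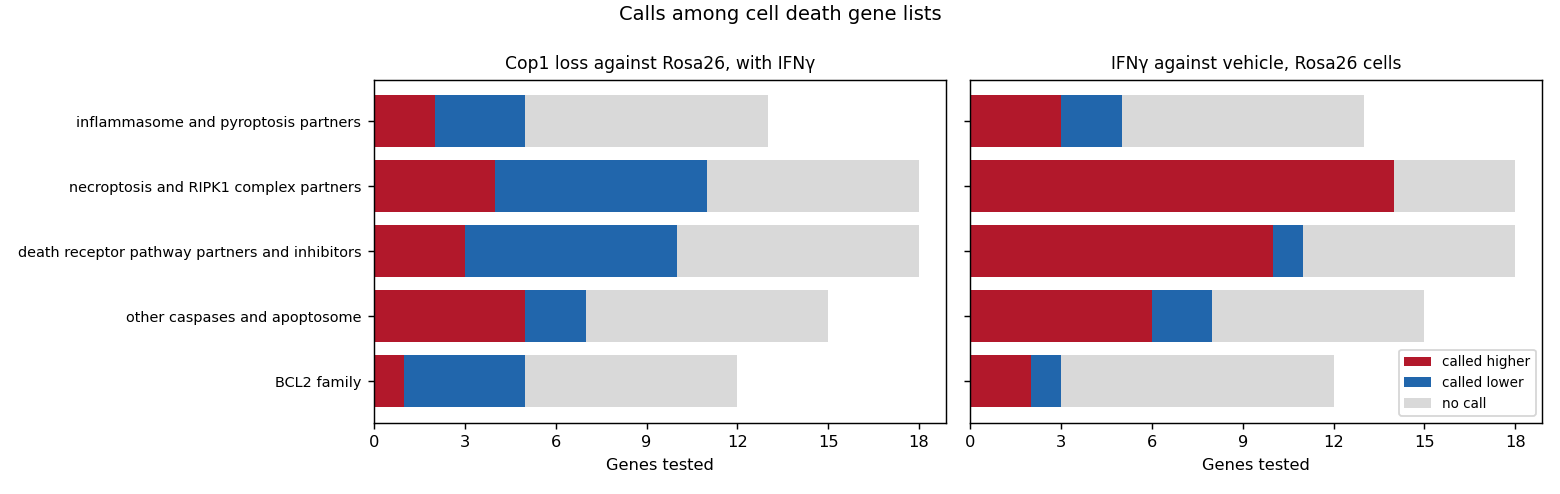
Number of tested genes of each cell death list (x axis) that were called higher, called lower or not called under Cop1 loss with IFNγ and with IFNγ in Rosa26 cells. Necroptosis and RIPK1 complex partners show 14 called higher and 0 lower with IFNγ in Rosa26 cells, and 4 higher and 7 lower under Cop1 loss with IFNγ. Over all tested genes, 16.6% were called higher and 16.2% lower with IFNγ in Rosa26 cells. Under Cop1 loss with IFNγ these shares were 19.8% and 20.7%.

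The genes whose 6 group means of log2 CPM lay closest to a member's, each centred on its own mean, were sought among 9111 others whose mean log2 CPM reached 3, by root mean square difference over the 6 groups. Casp4, with a lower mean, was left out. For Tnfsf10 these were Cd74 (difference 0.19 log2) and Il18bp (0.39). For Casp1 they were Trim21 (0.08) and Parp9 (0.11), and for Gsdmd Ogfr (0.06) and Rnf31 (0.07). For Mlkl they were Il13ra1 (0.05) and Lif (0.05), and for Fas Dennd2d (0.09) and H2-M3 (0.09). For Casp8 they were Casp8ap2 (0.014) and Casp2 (0.015), and for Tnfrsf10b R3hcc1l (0.011) and Uck1 (0.015). The group means of Casp8 (76.5 to 101 CPM) and Tnfrsf10b (64.2 to 72.0 CPM) varied little. By this measure genes that vary little lie close to each other, so these small differences do not show a shared pattern.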

How the data were processed

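RNA was sequenced from 12 libraries of 4T1 cells in 6 groups of 2. Per the labels' protocols, total RNA was extracted with a QIAGEN kit and an Illumina TruSeq RNA kit gave the libraries. Per the submitters' processing notes, the tools were HTSeq, with no version given, STAR 2.4.0 and DESeq2 1.10, and mm10 is the build. The authors deposited unnormalized counts per gene. The strand setting, the gene annotation and how multi-mapped reads were handled were not given in the sources used here. Columns of other samples numbered 0.

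A row of totals was not used. It matched the summed gene counts in 11 libraries and was 360 counts above them in Cop1 sgRNA1 vehicle replicate 1. Of 22298 named genes, 5858 had no count, and the low-count filter of edgeR (minimum count 10, minimum total 15) left 11904. The genes left out made up no more than 0.0267% of any library. The quasi-likelihood F test of edgeR 4.0.16 (R 4.3.3) was used, with TMM scaling, in 1 model of 6 group means. Adjusted p-values are Benjamini-Hochberg values over all genes tested, and a gene was called under 0.05. Cop1 loss is the mean of both guides. CPM are the counts scaled by TMM library sizes. The 2 libraries of each group differed by more than sampling noise (chi-square per degree of freedom 2.33 to 4.21), and each entered as its own sample. That spread may be technical and does not show that the libraries are separate cultures. The common coefficient of variation that edgeR estimated over all tested genes, beyond counting noise, was 3.21%. Single genes could differ more between libraries, such as Casp4 in Rosa26 cells with IFNγ, with a standard deviation of 3.22 on a mean of 15.97 CPM. Simulated counts with known changes were used to test the code.

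Genes were named by rule: all 9 members, and Cop1 as the targeted gene. From each pathway list the rule took the 3 called genes with the largest change and the most abundant gene without a call, in IFNγ against vehicle in Rosa26 cells and in Cop1 loss with IFNγ, at a mean log2 CPM of at least 3. Some genes that the rule names are not reported here. The members and lists were chosen with earlier results of these data known. Replicate numbers did not pair the samples: deviations of same-numbered libraries correlated between -0.075 and 0.059 over 15 pairs of groups. Alternatives were DESeq2 1.42.0, other scalings and filters, each library left out, a replicate block, fits on fewer groups, summed libraries and each guide alone. With no molecular identifiers, limits from a count of 0 cover counting error only.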

Additional observations from a re-analysis of the deposited data

Results flagged for a closer look

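The response to IFNγ differed between Cop1-loss and Rosa26 cells for 5 of the named list genes, by the interaction term of the edgeR fit, which is what put them here. Casp12, the neighbour of Casp4, rose more with IFNγ in Cop1-loss cells, by 0.578 log2 (adjusted p 0.00103). Gbp2, a guanylate-binding protein gene, rose more by 0.589 log2 (adjusted p 0.0110), but was not called when Rosa26 vehicle replicate 2 (0.51) or Rosa26 IFNγ replicate 1 (0.58) was left out, or in sgRNA2 cells alone (0.48). Tlr3 rose more by 0.373 log2 (adjusted p 0.000392). Il1a had a difference of -0.411 log2 (adjusted p 2.71e-06), a smaller response in Cop1-loss cells. Tnfrsf12a had a difference of -0.302 log2 (adjusted p 4.27e-07). Under Cop1 loss with IFNγ, Casp12 was called higher (0.30 log2), and Tlr3 (-0.34) and Il1a (-0.74) were called lower. Gbp2, at 637 CPM in Cop1-loss cells and 657 CPM in Rosa26 cells (-0.04), and Tnfrsf12a (0.02) had no call there. A larger response to IFNγ was therefore not in each case a higher level with IFNγ. Of all tested genes 3.38% had a higher and 2.36% a lower response in Cop1-loss cells, and 0 of the 8 tested members were called. None of the 5 differences was called with summed libraries, where adjusted p lay between 0.555 and 0.998.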

How the results depend on the processing

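Lower Casp4 under Cop1 loss in both treatments, higher Tnfsf10 under Cop1 loss with IFNγ, and the IFNγ responses of Casp1, Casp4, Gsdmd, Mlkl, Casp8, Fas and Tnfsf10 kept their direction and call under every alternative run. The highest adjusted p was 0.00397 for Casp4 in vehicle, 0.00293 for Casp4 with IFNγ and 0.0317 for Tnfsf10 with IFNγ under Cop1 loss. Of all the results in this list, the IFNγ response of Casp8 in Rosa26 cells came nearest to losing its call. Of 1160 member values under alternatives, 1101 kept direction and call, 27 lost a call, 6 gained one and 26 changed sign without being called. The 1101 include values that had no call in either fit. They also include fits that left out a library outside the comparison, where a value can hardly move. These counts therefore do not measure how stable the called results are. With 2 libraries per group and few counts, changes of Tnfsf10 and Casp4 in vehicle are the least precise.

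Counts of members called under Cop1 loss with IFNγ, 5 in the fit reported, were 3 with DESeq2, 2 with summed libraries, 3 in sgRNA2 alone, and 3 to 5 with 1 library left out. In vehicle the count of 3 was 1 with summed libraries. The interaction count of 0 was 1 with upper-quartile scaling, without a filter and at a mean CPM of at least 1, and 0 to 1 with 1 library left out.

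Counts over all genes with summed libraries, where the spread comes from the guides alone, were 1364 (4073 in the fit reported) for IFNγ in Cop1-loss cells, 1102 (3900) for IFNγ in Rosa26 cells, 1397 (4828) and 865 (4258) for Cop1 loss with IFNγ and in vehicle, and 0 (683) for the interaction. Calls of Cop1 itself ended there too (adjusted p 0.395 with IFNγ and 0.342 in vehicle), and list counts under Cop1 loss with IFNγ were 2 for necroptosis partners, 3 for death receptor partners, 1 for inflammasome partners, 2 for other caspases and 2 for the BCL2 family. The calls of Zbp1, Tlr3, Casp12, Bax, Bcl2l1 and Dpp8 under Cop1 loss with IFNγ ended there as well. In sgRNA1 alone, 2674 genes responded to IFNγ and 416 had an interaction. Between the guides in vehicle, 468 genes were called on their own groups alone, against 713. With 1 library left out the counts were 348 to 733 for the interaction, lowest without Rosa26 IFNγ replicate 1, and between guides 422 to 1264 with IFNγ and 349 to 686 in vehicle.

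Some values without a call changed sign, and the cause was not tested. For Tnfrsf10b the IFNγ response in Cop1-loss cells was -0.0448 with upper-quartile scaling, -0.0056 at a mean CPM of at least 1, -0.0208 in sgRNA2 alone, and -0.0326 to 0.0357 with 1 library left out. Under Cop1 loss in vehicle Gsdmd was -0.0144 in sgRNA1 alone and -0.0586 to 0.1964 with 1 library left out. Under Cop1 loss with IFNγ, Mlkl was 0.0028 in sgRNA2 alone and -0.0451 to 0.019 with 1 left out, and Apaf1 -0.0066 in sgRNA1 alone and -0.0077 to 0.0551 with 1 left out. With 1 left out Ppm1b was -0.0144 to 0.0599 and Tnfrsf12a -0.0109 to 0.059. With 1 library left out the interaction was -0.091 to 0.0051 for Casp8 (reported -0.04), -0.1143 to 0.1409 for Gsdmd (0.02) and -0.1444 to 0.8614 for Tnfsf10 (0.39), where it turned without Rosa26 vehicle replicate 1. Between guides with IFNγ it was -0.0634 to 0.1956 for Casp4 (reported 0.08), -0.1276 to 0.3587 for Fas (0.13), -0.0781 to 0.0486 for Tnfrsf10b (-0.01) and -0.2438 to 0.1364 for Tnfsf10 (-0.04), and in vehicle -0.0199 to 0.5174 for Casp4 (0.18) and -0.1694 to 0.058 for Fas (-0.05). Without a change of sign, Tnfsf10 in vehicle was -1.4812 to -0.0032 between guides (-0.53) and 0.036 to 1.0415 under Cop1 loss (0.51). In Rosa26 cells the IFNγ change of Apaf1 was -0.0251 with upper-quartile scaling and -0.0163 to 0.0416 with 1 library left out, and that of Map3k7 was 0.0001 without a filter, 0.0055 at a mean CPM of at least 1, 0.0004 with summed libraries and -0.0626 to 0.0602 with 1 left out.

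With a replicate block, which the numbers do not warrant, member counts were 7 and 8 for IFNγ in Cop1-loss and Rosa26 cells, 5 and 3 for Cop1 loss with IFNγ and in vehicle, and 0 in the other 3 comparisons, all as without it.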
